A study of Mus musculus with 10 samples.

Results

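The libraries labelled TAM short were compared with the libraries labelled control in an RNA-seq study of mouse intestinal organoids. The members were chosen by label and column name alone, and they are 4 of 10 libraries, 2 of TAM short and 2 of control, with all mouse genes of the count table. Of 47069 genes listed, 16179 had enough counts to be tested. In the study, organoids were grown from the intestine of mice (the segment used for these libraries is not stated in the sources used here) in which the scaffold subunit of the phosphatase PP2A can be deleted in stem cells, to follow how DMBA, a carcinogen, and loss of PP2A change them. By the labels, control libraries came from organoids kept in medium with Noggin, EGF and R-spondin-1 (NER) plus saline, and TAM short libraries from the same medium with tamoxifen, described as dosage-sensitive and short. What short stands for and the dose given to these organoids are not stated in the sources used here. The paper describes organoids treated with tamoxifen for 50 days and names no short or long group. The library titles (NS1 and NS2 for control, DSS_S1 and DSS_S2 for TAM short) spell out no treatment, so the groups follow the protocol in the labels. The paper uses DSS for dextran sulfate sodium, in a sentence on colitis in mice, and describes no such treatment of its organoids. What the letters stand for in the titles was not tested. The record calls the tissue an intestinal organoid in one field and intestine tissue in the source field. The paper's methods describe RNA taken from organoid culture. The difference from the source field could not be settled here. All libraries, control included, are described as strain C57BL/6, a culture of 50 days in Matrigel, and the genotype Lgr5-EGFP-CreERT2 with Ppp2r1a floxed around exons 5 and 6. This Cre is made only in Lgr5-positive stem cells and is active only with tamoxifen. The other groups were DMBA, TAM long and DMBA+TAM, each with 2 libraries, and they enter below only through the shared estimate of spread and as values set beside a result.

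The lining of the small intestine is renewed from stem cells at the crypt base, which give rise to absorptive enterocytes, mucus-making goblet cells, Paneth cells, hormone cells and tuft cells. Enterocytes differ along the length of the gut. Those of the duodenum and jejunum take up sugars, iron and fat and make lactase, whereas those of the ileum, the last stretch, recover bile acids and signal to the liver through Fgf15. The epithelium also makes lectins and oxidants that keep bacteria away from its surface, and it answers interferons and cholesterol shortage with well known sets of genes.

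The control libraries held 10291026 and 9994298 counted reads and the TAM short libraries 9837309 and 8828247, so that 3 counts, taken as the lowest level told from 0, stand for 0.339 to 0.379 CPM (counts per 1e+06 reads, on library totals scaled by TMM). The replicates correlated at r = 0.9901 across genes in control and 0.9908 in TAM short, and differed by more than sampling alone in both groups. Nothing in the sources says that 2 replicates were separate cultures or animals, so the p-values measure only the spread between these samples. General epithelial genes such as Epcam and the keratins summed to between 15300 and 20200 CPM in the 4 libraries, so an epithelium was present in each. Genes of other cells were also there in all 4, although one label names organoids. Fibroblast genes summed to 1650 and 1500 CPM in control and 946 and 784 in TAM short, smooth muscle genes to between 1820 and 3400, and plasma cell genes to between 4390 and 6380. Colon genes were mostly absent, with Car1, Hoxb13, Hoxd10 and Aqp8 at 5 counts or fewer in each of the 4 libraries, while the Paneth cell gene Lyz1 stood at 4500 to 8840 CPM. In bulk RNA such as this, fewer cells of a type and less RNA per cell cannot be told apart.

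Ppp2r1a, the floxed gene, was measured at about the same level in both groups. The gene (chromosome 17, 20945311 to 20965916, plus strand, GRCm38) had 1087 and 1074 counts in control and 1156 and 1168 in TAM short, which is 123 and 129 CPM against 131 and 147. Its log2 fold change was 0.14 ± 0.11 (SE, n = 2 against 2, edgeR adjusted p = 0.459). The gene count adds the exons outside the floxed stretch to those inside it, and the other epithelial cells to the stem cells, so it does not measure how many alleles were deleted. Of 18 genes for subunits and regulators of PP2A, 0 passed edgeR's test, which 14.3% of all genes tested passed, with 3 at an unadjusted p under 0.05, and DESeq2 called 1 higher. A fit of the 4 libraries alone, which called 4317 genes in all, had 4 of the 18 higher and 2 lower. Without the low-count filter, where 3294 genes were called, 2 were higher and 1 lower. The second scaffold gene, Ppp2r1b, had 26.5 and 22.4 CPM in control and 30.3 and 32.1 in TAM short (log2 fold change 0.35 ± 0.17).

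Between TAM short and control, 2317 of 16179 genes (14.3%) differed at an adjusted p under 0.05 by the quasi-likelihood test of edgeR, with p-values adjusted after Benjamini and Hochberg over all genes tested. Of these, 1055 (6.52% of the genes tested) were higher and 1262 (7.8%) lower in TAM short, and 1172 differed by a log2 fold change of at least 1. The median log2 fold change over all genes tested was -0.04. The groups did not overlap in 10223 genes (63.2%). With library size as the only scaling the calls were 1279 higher and 905 lower, so that 58.6% were higher in place of 45.5%. Leaving out a library lowered the count to 981 without control replicate 1, 784 without control replicate 2, 1057 without TAM short replicate 1 and 669 without TAM short replicate 2. For a single gene, an exact permutation test of 2 against 2 cannot go below 0.333, so every call rests on the spread shared by all genes and groups.

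**Figure D1:**
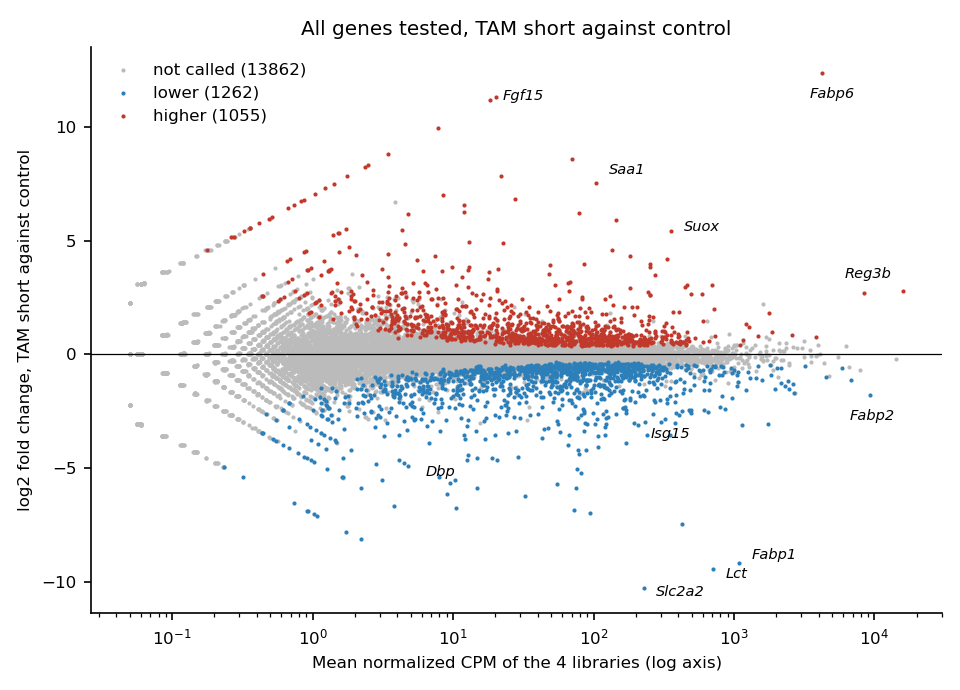
Each point is a gene; the x axis gives its mean normalized CPM over the 4 libraries (log axis) and the y axis its log2 fold change, TAM short against control, in red for the 1055 genes called higher and blue for the 1262 called lower. Fabp6 stands at the top right at 12.38, and Slc2a2, Lct and Fabp1 at the bottom, below -9; the fine lines at the left are genes with only a few counts, whose fitted fold changes are no measure of size.

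Genes that mark a position along the small intestine were among those with the largest changes. Fabp6 and Fgf15, of ileal bile acid handling, were close to absent or at 0 in control and high in TAM short, and Lct and Fabp1, of the proximal small intestine, were the reverse. Fabp6, the bile acid binding protein of ileal enterocytes (chromosome 11, 43596049 to 43601540), had 25 and 2 counts in control and 69451 and 71046 in TAM short, which is 2.83 and 0.241 CPM against 7850 and 8960. It took 0.755% of all counts in TAM short on average, and its log2 fold change was 12.38 ± 0.74 (edgeR adjusted p = 1.67e-05), or 15.0 without control replicate 1 and 11.53 without control replicate 2. Both TAM short libraries were high and both control libraries low, and none of the 6 libraries of the other groups had more than 2.76 CPM.

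Fgf15, the hormone that ileal cells release when bile acids enter them (chromosome 7, 144896532 to 144900953), had 0 counts in both control libraries and 188 and 415 in TAM short. At this depth it was at least 105-fold higher in TAM short (edgeR adjusted p = 0.00237, or 0.119 with DESeq2), and it had 0 counts in each of the 6 other libraries of the series. Slc10a2, the sodium-dependent carrier that takes bile acids up from the lumen, had 5.88 and 3.37 CPM in control and 233 and 334 in TAM short. Its log2 fold change was 5.92 ± 1.48 (edgeR adjusted p = 0.0303). The shared estimate of spread takes in other groups, where the gene ranged from 0.449 to 11.8 CPM in DMBA and from 1.87 to 79.2 in TAM long, and the call was lost when any library was left out (edgeR adjusted p from 0.0957 to 0.225).

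The remaining ileal genes did not pass the test, though most had values above control. Slc51a and Slc51b, whose products together release bile acids into the blood, had 356 and 330 and 54 and 44.9 CPM in control, and 876 and 991 and 94.2 and 112 in TAM short. Nr0b2, a repressor that bile acids induce, had 0.339 and 0.602 CPM in control and 2.03 and 2.9 in TAM short (edgeR adjusted p = 0.0523). The vitamin B12 receptor pair Cubn and Amn had log2 fold changes of 0.49 and -0.8. Of all genes tested, 6.52% were called higher. In all, 3 of 10 ileal genes were higher and 0 lower, with a median log2 fold change of 1.25 beside -0.04 over all genes, and 2 of 10 were higher with DESeq2 or with whichever library left out.

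Of 10 proximal genes tested, 8 were lower and 1 higher in TAM short, beside 7.8% and 6.52% of all genes. Their median log2 fold change was -2.82. Lct, lactase, the brush border enzyme that splits milk sugar (chromosome 1, 128284756 to 128328318), had 11317 and 12909 counts in control and 27 and 7 in TAM short. That is 1280 and 1550 CPM against 3.05 and 0.883, a log2 fold change of -9.45 ± 0.48 (edgeR adjusted p = 3.59e-05), or 700-fold lower, with the log2 fold change between -10.62 and -8.85 when 1 library was left out. Fabp1, a fatty acid binding protein shared with the liver (chromosome 6, 71199827 to 71205023), fell from 1590 and 2750 CPM to 5.2 and 2.15 (log2 fold change -9.19 ± 0.83, edgeR adjusted p = 0.000239). Both genes were also at 2.76 CPM or less in the 6 libraries of the other groups, so control alone held them at a high level.

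Gata4, the transcription factor that maintains the jejunal programme, had 136 and 153 CPM in control and 36.9 and 13.6 in TAM short. Its log2 fold change of -2.51 ± 0.55 passed edgeR's test (edgeR adjusted p = 0.0175) and did not pass DESeq2 (adjusted p by DESeq2 = 0.203), and it was lost without control replicate 1, control replicate 2 or TAM short replicate 2 (edgeR adjusted p from 0.101 to 0.186). Onecut2, another transcription factor of the proximal gut, fell from 9.95 and 34.3 CPM to 1.58 and 2.15 (log2 fold change -3.56 ± 0.56, from -4.2 to -2.41 with 1 library left out). The other falls were Apoa4 (log2 fold change -3.12), Adh6a (-3.01), Slc5a12 (-2.62) and Ddc (-2.0). The groups did not overlap in any of these, as in 63.2% of all genes. The exception was Slc40a1, ferroportin, the iron exporter, with 11.2 and 10.4 CPM in control and 218 and 304 in TAM short (log2 fold change 4.6 ± 0.37, edgeR adjusted p = 8.11e-05). With whichever library left out, 7 or 8 proximal genes were lower and 1 higher.

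**Figure D2:**
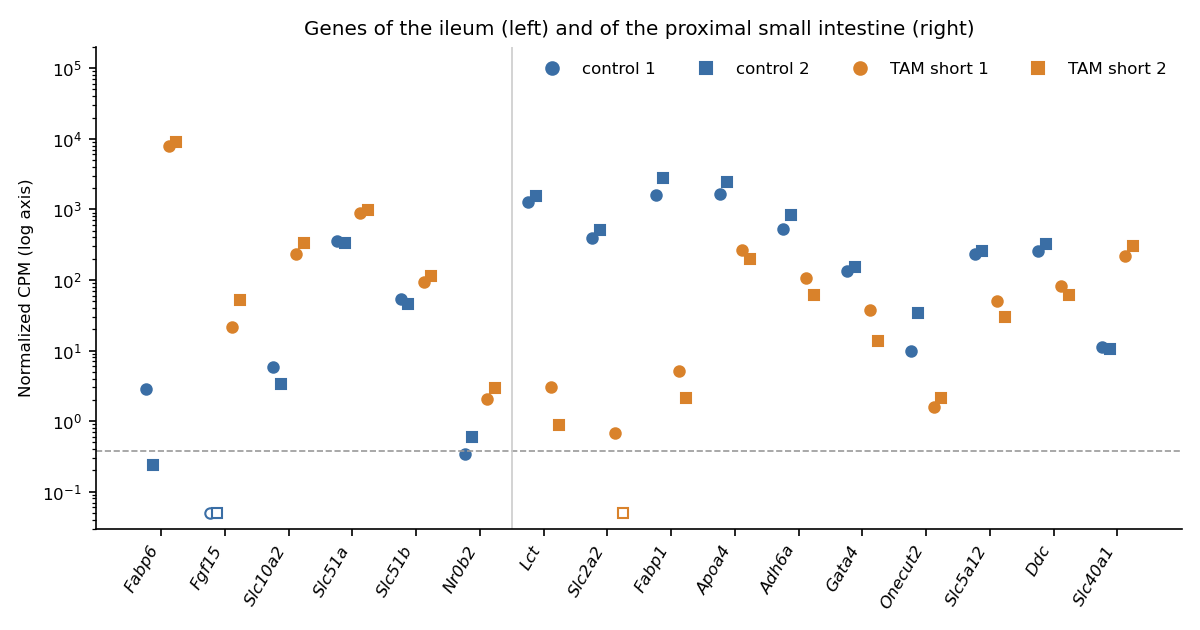
Normalized CPM (log axis) of 6 ileal genes, 9 proximal genes and Slc2a2 in each of the 4 libraries, control in blue and TAM short in orange, with circles for replicate 1 and squares for replicate 2; the dashed line is the level of 3 counts, 0.379 CPM, and open symbols at the bottom are libraries with 0 counts. Fabp6, Fgf15 and Slc10a2 stand higher in TAM short, and on the right all but Slc40a1 stand lower.

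Hoxb9, a homeobox gene, one of a family that carries position along the body axis, had 1 count in each control library and 101 and 177 in TAM short, at least 48.2-fold higher (edgeR adjusted p = 0.000225). The unnamed locus Gm53, which lies beside it on chromosome 11 (from 96251105), had 0 counts in control and 81 and 174 in TAM short, at least 44.4-fold higher. The kit does not mark strand, so reads of neighbouring or overlapping transcripts cannot be told apart. Further homeobox genes were picked after their values were seen. Hoxc8 had 2.83 and 1.93 CPM in control and 15.1 and 11.5 in TAM short, whereas Hoxa5 had 4.3 and 3.97 and then 1.69 and 0.379, and Hoxb6, Hoxb7 and Hoxb8 had log2 fold changes of 2.44, 2.28 and 2.43 that did not pass the test (edgeR adjusted p = 0.254, 0.199 and 0.237). The call of Hoxc8 was lost with whichever library left out (edgeR adjusted p from 0.0686 to 0.134), and that of Hoxa5 was lost without control replicate 1, control replicate 2 or TAM short replicate 2 (up to 0.107) and kept without TAM short replicate 1 (0.00647).

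Genes of the enterocyte brush border, sugar uptake and fat uptake were lower in TAM short. Of 18 enterocyte genes, 10 were lower and 0 higher, beside 7.8% and 6.52% of all genes. Their median log2 fold change was -1.48, and 17 of the 18 were below 0. Slc2a2, the glucose carrier of the basal membrane (chromosome 3, 28697903 to 28731359), had 3511 and 4270 counts in control and 6 and 0 in TAM short. Its log2 fold change was -10.26 ± 0.49 (edgeR adjusted p = 2.39e-05, or 0.054 with DESeq2), and with 1 library left out the fitted value ran from -14.82 to -9.36 (TAM short replicate 2 had 0 counts). Slc2a5, the fructose carrier, fell from 176 and 230 CPM to 11.3 and 12.5 (log2 fold change -4.09 ± 0.33), and Slc5a1, which takes up glucose from the lumen with sodium, from 3830 and 4350 to 1300 and 1250 (-1.68 ± 0.19). Also lower were the sugar enzymes Mgam (log2 fold change -1.38) and Treh (-1.58), the peptide carrier Slc15a1 (-1.94) and the amino acid carrier Slc6a19 (-0.9). The call of Slc15a1 was lost with whichever library left out and with DESeq2 (adjusted p from 0.151 to 0.292 and 0.0643), and that of Slc6a19 with whichever library left out (edgeR adjusted p from 0.0628 to 0.124). Treh kept its call without control replicate 1 and lost it without each of the others (edgeR adjusted p up to 0.0753).

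The other enterocyte genes were not called. Sis, sucrase-isomaltase, had 4100 and 4230 CPM in control and 1340 and 1210 in TAM short, without overlap, but did not pass the test (edgeR adjusted p = 0.106). Vil1, villin, the actin bundler of microvilli, had 3830 and 4030 CPM against 3030 and 3130 (log2 fold change -0.35 ± 0.14, edgeR adjusted p = 0.122), and Enpep, a brush border peptidase, 2460 and 2230 against 2060 and 1920. Slc7a9, an amino acid carrier, was the single enterocyte gene above 0, with a log2 fold change of 0.48 ± 0.49. Without a library, 6 or 7 of the enterocyte genes were lower, with 6 in the absence of control replicate 2 or TAM short replicate 2.

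Of 21 fat absorption genes, 15 were lower, beside 7.8% of all genes, and 0 higher. All 21 were below 0 (median log2 fold change -1.15), and 6 were not called. Fabp2, the intestinal fatty acid binding protein and among the called genes of highest level, had 14900 and 14000 CPM in control and 5200 and 3240 in TAM short (log2 fold change -1.77 ± 0.37, edgeR adjusted p = 0.0125). The apolipoproteins of fat-carrying particles fell by different amounts: Apoa4 from 1630 and 2470 CPM to 270 and 201, Apoc3 by a log2 fold change of -2.67, Apoc2 by -2.57 and Apoa1 by -1.15. Apob, the structural protein of the same particles, stayed at 3900 and 3930 CPM in control and 4040 and 3410 in TAM short (log2 fold change -0.07 ± 0.35). The enzymes and carriers Mttp (-1.31), Acsl5 (-1.52), Dgat1 (-0.89) and Cd36 (-2.31) passed the test, and Mogat2 (-0.66) and Npc1l1 (-0.33) did not. Rbp2, which binds vitamin A in enterocytes and is among the called genes of highest level, fell from 2390 and 3820 CPM to 454 and 283 (log2 fold change -3.07 ± 0.32, edgeR adjusted p = 0.000454). The number of lower fat absorption genes was 9 without control replicate 1 or TAM short replicate 1, and 5 without control replicate 2 or TAM short replicate 2. Among the genes named, Apoa1 was not called with whichever library left out (edgeR adjusted p from 0.138 to 0.28). Fabp2 was called without TAM short replicate 1 and not without any other, and Mttp, Dgat1 and Cd36 were lost without control replicate 2 or TAM short replicate 2 (edgeR adjusted p up to 0.12).

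Of 24 genes tested for handling drugs and other foreign compounds, 11 were lower, beside 7.8% of all genes, and 0 higher. The median log2 fold change was -1.83, with 22 genes below 0 and 2 above, and 13 were not called. Cyp2b10, an oxidase that foreign compounds induce, fell from 136 and 182 CPM to 5.42 and 3.03 (log2 fold change -5.21 ± 0.34, edgeR adjusted p = 0.000108). Gstm3, which joins glutathione to reactive compounds, fell from 115 and 178 CPM to 9.26 and 6.44 (log2 fold change -4.21 ± 0.3). Cyp3a11, the main oxidase of drugs including tamoxifen, fell from 190 and 247 CPM to 32.1 and 20.3 (log2 fold change -3.06 ± 0.33, edgeR adjusted p = 0.000968, or 0.167 with DESeq2). Cyp1a1, the oxidase induced through the aryl hydrocarbon receptor, rested on few reads, 11 and 43 counts in control and 0 and 1 in TAM short, at least 8.95-fold lower, and was called without control replicate 1 and not without any other of the 4 libraries (edgeR adjusted p from 0.154 to 0.212). Carboxylesterases varied among themselves, with Ces2a at a log2 fold change of 1.3 and Ces1f at -1.08, both not called. The count of lower genes was 11 without control replicate 1, 8 without control replicate 2, 7 without TAM short replicate 1 and 8 without TAM short replicate 2.

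Other carriers stood among the genes with the largest falls. Slc5a4a, a sugar-sensing relative of the sodium glucose carrier, had 185 and 190 CPM in control and 1.24 and 1.77 in TAM short, Slc2a7 56.6 and 72.4 against 0.791 and 0.883, and Slc23a1, a vitamin C carrier, 142 and 144 against 1.81 and 0.631. Slc28a1, a nucleoside carrier, had 21.8 and 36.9 CPM in control and 0.791 and 0.126 in TAM short. Leap2, a hormone and antimicrobial peptide of proximal enterocytes, fell from 107 CPM in both control libraries to 2.37 and 1.64 (log2 fold change -5.72 ± 0.25, edgeR adjusted p = 9.05e-06). St3gal4, which caps sugar chains with sialic acid, was at 858 and 826 CPM in control and 4.86 and 4.54 in TAM short (log2 fold change -7.48 ± 0.24, edgeR adjusted p = 7.41e-07). The other large falls by rule were Aadac, an esterase (-5.88), Trim38, which had 151 and 156 counts in control and 4 and 0 in TAM short (-6.15, or -10.15 without TAM short replicate 1 and -5.26 without TAM short replicate 2), and Gm8989, which had 176 and 181 counts in control and 2 and 1 in TAM short, at least 58.1-fold lower.

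Carriers and enzymes were also among the largest rises. Slc15a2, a peptide carrier, had 3 and 2 counts in control and 202 and 195 in TAM short, at least 67.8-fold higher, and Slc6a14, an amino acid carrier, 2 counts in each control library and 140 and 250 in TAM short, at least 67.7-fold higher. Tat, the liver enzyme of tyrosine breakdown, had 2 and 1 counts in control and 327 and 401 in TAM short, at least 125-fold higher. Pnp2, a purine phosphorylase with a close copy beside it, had 2 and 4 counts in control and 1313 and 1054 in TAM short (log2 fold change 8.59 ± 0.32, edgeR adjusted p = 4.64e-06). Slc25a48, a mitochondrial carrier, rose from 2.94 and 1.2 CPM to 125 and 185 (log2 fold change 6.2 ± 0.34). Sprr2a2 and Sprr2a1, small proline-rich proteins of stressed epithelia, had 0 and 0 and 2 and 6 counts in control and 353 and 322 and 751 and 189 in TAM short. Their annotated spans overlap on chromosome 3 and their sequences are near copies, so how reads were shared between them is uncertain.

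Genes for making and taking up cholesterol were higher in TAM short. Of 22 genes, 18 were higher and 0 lower, beside 6.52% of all genes called higher, with a median log2 fold change of 1.0. Hmgcs1, which makes HMG-CoA, had 314 and 317 CPM in control and 843 and 921 in TAM short (log2 fold change 1.48 ± 0.26, edgeR adjusted p = 0.00459). Later steps moved by similar amounts, with Sqle from 133 and 123 CPM to 383 and 413 (1.64 ± 0.27), Fdft1 from 76.9 and 78.4 to 221 and 254 (1.61 ± 0.21) and Mvd at 1.45. Srebf2, the transcription factor that turns these genes on, rose from 133 and 129 to 206 and 238 (0.76 ± 0.11). The pair Abcg5 and Abcg8, which pump sterols back into the lumen, went the other way, from 310 and 283 CPM to 137 and 139 and from 206 and 208 to 90.3 and 93.1, calls that were lost with whichever library left out (edgeR adjusted p from 0.108 to 0.198).

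The cholesterol genes that were not called were Msmo1 (log2 fold change 0.79, edgeR adjusted p = 0.0835), Insig1 (0.85, edgeR adjusted p = 0.0842), Ebp (0.33) and Sc5d (-0.12). In all 22 genes the groups did not overlap, beside 63.2% of all genes. The count of higher genes was 20 with library size as the only scaling and 19 with DESeq2. It was 9 without control replicate 1, 8 without control replicate 2, 14 without TAM short replicate 1 and 9 without TAM short replicate 2. Hmgcs1 was lost without either control library (edgeR adjusted p up to 0.0591) and Sqle without control replicate 2 (0.0637).

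Genes that interferon induces were split, with 14 of 26 lower and 4 higher in TAM short, beside 7.8% and 6.52% of all genes. Their median log2 fold change was -0.98. The lower genes were, with the exception of Gbp6, antiviral ones that type I and type III interferons are best known to induce. Isg15, a ubiquitin-like protein (chromosome 4, 156199424 to 156200818), had 307 and 439 CPM in control and 44.2 and 41.4 in TAM short (log2 fold change -3.12 ± 0.18, edgeR adjusted p = 1.67e-05). Ifit3 fell from 89.8 and 109 CPM to 10.2 and 13.6 (-3.07 ± 0.25), and Oas2, which makes a messenger that activates RNA decay, from 56.6 and 103 to 6.1 and 6.44 (-3.67 ± 0.33). Usp18 (-2.61), Oasl2 (-2.12), Mx2 (-2.09), Oas3 (-2.02), Rsad2 (-2.01), Ifit1 (-1.85), Oas1a (-1.72), Bst2 (-1.69), Gbp6 (-1.54), Irf7 (-1.21) and Stat2 (-0.76) made up the rest.

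The 4 higher genes are known to answer interferon gamma, but so are genes of the list that did not rise. Among these, Igtp (log2 fold change 0.07) and Irgm1 (-0.12) were not called and Gbp6 (-1.54) was lower. The part of interferon gamma was not tested. Irf1, a transcription factor, rose from 217 and 229 CPM to 536 and 474 (log2 fold change 1.18 ± 0.12, edgeR adjusted p = 0.000242), and Gbp2, a GTPase that attacks bacterial vacuoles, from 24.8 and 24.6 to 89.5 and 84.8 (1.82 ± 0.27, edgeR adjusted p = 0.00227). Iigp1 rose by 1.52 ± 0.21 and Cxcl9, which draws in T cells, by 1.3 ± 0.32, the latter lost with whichever library left out (edgeR adjusted p from 0.0753 to 0.186). The 8 genes not called ranged from Cxcl10 (log2 fold change 1.32) to Mx1 (-0.7), with Irgm1 at 180 and 211 CPM in control against 183 and 176 in TAM short. Without a library, 12 to 14 genes were lower and 3 higher, and Irf7 and Gbp6 were called without control replicate 1 and not without any other (edgeR adjusted p up to 0.073 and 0.289).

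Promoters of these genes were read because the members moved together in opposite directions. RefSeq promoters (GRCm38.p6, 250 bases before to 50 after the start) were found for 18 of the 26 genes, matched by symbol. The letters GAAANNGAAA, the core of the interferon-stimulated response element, searched on both strands, were in 13 of the 18, and in 3.99% of 27025 genes with a promoter in the table. They were in 8 of 10 lower genes, 1 of 3 higher genes and 4 of 5 genes not called, so that Gbp2, which rose, held the motif as well as Isg15, which fell. A match is a description of the sequence and was not tested as a binding site. The stretches of 80 bases around the matches, in the direction of transcription and with the matched letters of either strand in capitals, are given for 4 genes that fell and for Gbp2: Isg15 at chr4:156200846-156200925 (minus strand), Ifit3 at chr19:34583355-34583434 (plus), Rsad2 at chr12:26456528-26456607 (minus), Oas3 at chr5:120777690-120777769 (minus) and Gbp2 at chr3:142620569-142620648 (plus).
Isg15: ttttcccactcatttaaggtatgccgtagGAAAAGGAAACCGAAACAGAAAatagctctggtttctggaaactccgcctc
Ifit3: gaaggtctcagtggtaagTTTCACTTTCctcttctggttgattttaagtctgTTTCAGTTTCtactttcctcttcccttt
Rsad2: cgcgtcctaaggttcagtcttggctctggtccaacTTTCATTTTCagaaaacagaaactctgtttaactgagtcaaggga
Oas3: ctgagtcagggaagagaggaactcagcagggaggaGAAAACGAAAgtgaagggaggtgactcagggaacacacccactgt
Gbp2: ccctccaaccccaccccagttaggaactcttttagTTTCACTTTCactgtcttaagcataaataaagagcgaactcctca
In Isg15 the capitals hold 3 matches that overlap, and in Ifit3 the 2 matches lie apart; the other windows hold 1 match each.

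Of 10 genes of antigen presentation on MHC class II, which interferon gamma also induces, 6 were higher, beside 6.52% of all genes, and 0 lower. All 10 were above 0, with a median log2 fold change of 1.28, and 4 were not called. Ciita, the factor that switches this set on, had 19.1 and 15.8 CPM in control and 56.0 and 69.4 in TAM short (log2 fold change 1.84 ± 0.31, edgeR adjusted p = 0.00421). Cd74, the chain that guides the molecules to the vesicles where peptides load, rose from 730 and 820 CPM to 1760 and 1840 (1.21 ± 0.35, edgeR adjusted p = 0.0487), and H2-Eb1 from 5.09 and 7.95 to 29.8 and 29.0 (2.18 ± 0.37). H2-Aa, with 8.25 and 8.31 CPM against 20.2 and 18.5, did not pass (edgeR adjusted p = 0.0533). Of the MHC class I genes 2 of 14 were lower, beside 7.8% of all genes, H2-Q1 (-2.09) and H2-Q2 (-0.9), both members of a family of near copies, and H2-K1 was at 0.02. H2-Q2 was lost with whichever library left out (edgeR adjusted p from 0.0601 to 0.168) and H2-Q1 without TAM short replicate 2 (0.0633). Without control replicate 1 the call of higher class II genes held for 1, without control replicate 2 for 2, without TAM short replicate 1 for 3 and without TAM short replicate 2 for 2, and DESeq2 called 8. Cd74 was among those lost each time (edgeR adjusted p from 0.156 to 0.249), Ciita was lost without control replicate 2 or TAM short replicate 2 (up to 0.0679) and H2-Eb1 without control replicate 1 (0.0659).

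Antimicrobial and colitis genes of the epithelium held some of the most abundant changes. Of 20 tested, 8 were higher and 0 lower in TAM short, beside 6.52% and 7.8% of all genes (median log2 fold change 1.77). Reg3b, a lectin that enterocytes and Paneth cells secrete against bacteria (chromosome 6, 78370657 to 78373466), had 5080 and 2980 CPM in control and 25600 and 30500 in TAM short (log2 fold change 2.8 ± 0.62, edgeR adjusted p = 0.0163). Its neighbour Reg3g rose from 2600 and 1890 CPM to 13300 and 15700 (2.69 ± 0.77, edgeR adjusted p = 0.0451). Together they took 0.659% and 0.404% of all counts in the control libraries and 3.49% and 4.15% in the TAM short libraries. The calls of both were lost when any of the 4 libraries was left out (edgeR adjusted p from 0.0607 to 0.262), with log2 fold changes still between 2.46 and 3.24.

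The oxidant-making genes rose from a lower level, Nos2 and Duoxa2 by larger folds than Reg3b and Reg3g, and Duox2 by a slightly smaller one. Nos2, which makes nitric oxide, had 34.9 and 26.1 CPM in control and 430 and 514 in TAM short (log2 fold change 3.95 ± 0.4, edgeR adjusted p = 0.000244). Duox2, which makes hydrogen peroxide at the cell surface, rose from 92.4 and 51.9 CPM to 384 and 488, and its maturation factor Duoxa2 from 8.14 and 3.97 to 86.1 and 98.3 (log2 fold changes 2.59 ± 0.33 and 3.92 ± 0.41). Saa1, an acute phase protein that gut epithelium makes in contact with bacteria, had 10 and 9 counts in control and 1330 and 2116 in TAM short (7.54 ± 0.51, edgeR adjusted p = 2.8e-05). Ido1, which breaks down tryptophan, rose from 49.2 and 51.4 CPM to 221 and 225 (2.15 ± 0.18), and Tnf had 0 and 2 counts in control and 24 and 34 in TAM short, at least 10-fold higher. Il6 had 0 counts in all 4 libraries, Cxcl2 3 or fewer, and Lcn2 between 1.2 and 2.03 CPM in both groups. Il1b, a cytokine of inflammation, had 7 and 0 counts in control and 35 and 19 in TAM short, and did not pass edgeR's test (edgeR adjusted p = 0.0607, or 0.00281 with DESeq2). Pigr, which carries antibodies across the epithelium, stood at 3700 and 4180 CPM in control and 3760 and 3990 in TAM short. With whichever library left out, 6 genes of the list were higher.

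Immune cell genes moved with these results in part. Of 11 T cell genes, 4 were higher, beside 6.52% of all genes. Among the 4 were Cd4, from 2.6 and 3.49 CPM to 14 and 14.9 (log2 fold change 2.24 ± 0.3, edgeR adjusted p = 0.00129), and Cd5, from 0.791 and 0.964 to 9.72 and 13.1 (3.68 ± 0.46). The T cell genes summed to 70.9 and 84.7 CPM in control and 142 and 150 in TAM short. Cd3e had 5.31 and 8.19 CPM against 11.0 and 13.9. Of the list, 9 genes were above 0 and 2 below, Trdc (-2.16 ± 0.63) and Tcrg-C1 (-0.24 ± 0.31), both not called. B cell genes summed to 9.38 and 54.7 CPM in control and 107 and 106 in TAM short, so control replicate 1 stood apart: Ms4a1 had 0 counts there and 76 in control replicate 2, and 169 and 163 in TAM short. Of 10 B cell genes, 0 passed edgeR's test and 0 had an unadjusted p under 0.05, DESeq2 called 0, and a fit of the 4 libraries alone called 9. Macrophage and dendritic cell genes summed to 223 and 283 CPM in control and 420 and 382 in TAM short (4 of 12 higher), and plasma cell genes had 3 of 12 higher and 1 lower, Iglc1, which was lost with whichever library left out (edgeR adjusted p from 0.0619 to 0.202). The higher plasma cell count was 2 without control replicate 2 or TAM short replicate 2. The count for macrophage genes was 1 without control replicate 2 and 0 without any other of the 4 libraries. Of all genes tested, 6.52% were called higher with all libraries. The 3 higher plasma cell genes were Xbp1 (log2 fold change 0.7), Prdm1 (1.27) and Sdc1 (1.05). Among the 8 not called were Igha (0.15), Igkc (0.12), Tnfrsf17 (0.07), Derl3 (-0.06), Jchain (0.88) and Mzb1 (1.01). The part of immune cells in the rise of MHC class II and of Tnf was not tested.

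**Figure D3:**
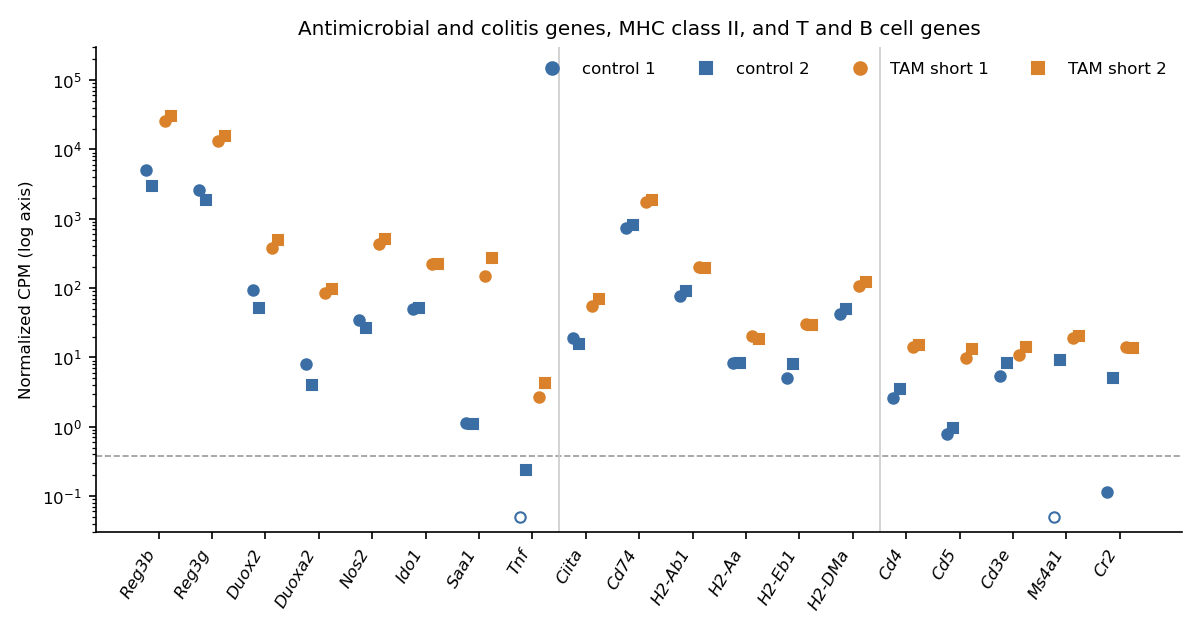
Normalized CPM (log axis) in each of the 4 libraries, control in blue and TAM short in orange, of 8 antimicrobial and colitis genes (left), 6 MHC class II genes (middle) and 5 T and B cell genes (right); the dashed line is the level of 3 counts and open symbols are libraries with 0 counts. TAM short stands above control in each gene, and control replicate 1 stands apart in Ms4a1 and Cr2.

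Genes of the circadian clock were spread in both directions, with 7 of 18 lower and 5 higher, beside 7.8% and 6.52% of all genes. Their median log2 fold change was -0.13. The clock turns on feedback: Arntl, with Clock or Npas2, drives the Per, Cry and Nr1d genes and the output factors Dbp, Tef and Hlf, and Nr1d1 in turn represses Arntl and Nfil3. Of the driven genes, Dbp, Tef, Hlf, Per1, Per3, Nr1d1 and Nr1d2 were lower, Cry1 was higher, and Per2 and Cry2 were not called. Dbp had 24.6 and 23.5 CPM in control and 1.13 and 0.757 in TAM short (log2 fold change -4.64 ± 0.36, edgeR adjusted p = 6.46e-05), Nr1d1 84.9 and 77.2 against 9.94 and 6.69 (-3.28 ± 0.22), and Per1 34.1 and 42.4 against 8.7 and 7.82 (-2.21 ± 0.18). Nr1d2 (-1.99), Tef (-1.92), Per3 (-1.76) and Hlf (-1.34) were the other 4.

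Genes higher in TAM short included both named above as repressed by Nr1d1. Nfil3 rose from 5.99 and 4.22 CPM to 35.9 and 35.5 (log2 fold change 2.8 ± 0.22, edgeR adjusted p = 7.63e-05), Cry1 from 18.8 and 17.8 to 55.4 and 55.8 (1.6 ± 0.14) and Arntl from 20.0 and 21.3 to 43.8 and 43.7 (1.08 ± 0.16). Npas2 (0.68) was higher by less and lost its call with whichever library left out (edgeR adjusted p from 0.119 to 0.277), and Clock (0.06), Cry2 (-0.04) and Per2 (-0.22) were not called. With whichever of the 4 libraries left out 6 were lower and 3 higher, in place of 7 and 5, with Hlf lost each time (edgeR adjusted p from 0.0566 to 0.0995). The hour at which RNA was taken is not given in the sources used here. In TAM long, 2 of these genes lay between the groups, Dbp at 6.04 and 3.83 CPM and Nr1d1 at 20.8 and 14.2, whereas DMBA had 32.8 and 20.3 for Dbp; these values were not tested here.

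The E-box letters CACGTG, through which Arntl acts, were in the promoters of 5 of 15 clock genes found in the RefSeq table and in 8.09% of all 27025 genes. They were in 2 of 7 lower and 1 of 4 higher genes, the higher one being Cry1. The windows of the 2 lower genes, Tef at chr15:81802509-81802588 and Per1 at chr11:69098746-69098825, both on the plus strand, hold 1 match each, in capitals. For cholesterol genes, the letters TCACNCCAC of the sterol regulatory element were in 1 of 15 promoters, that of Hmgcs1, and in 1.44% of all genes, so most of the genes that rose did not hold these letters in the 300 bases read.
Tef: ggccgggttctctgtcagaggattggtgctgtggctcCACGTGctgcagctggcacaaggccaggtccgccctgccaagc
Per1: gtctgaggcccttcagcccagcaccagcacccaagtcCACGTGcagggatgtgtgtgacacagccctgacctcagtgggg

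**Figure D4:**
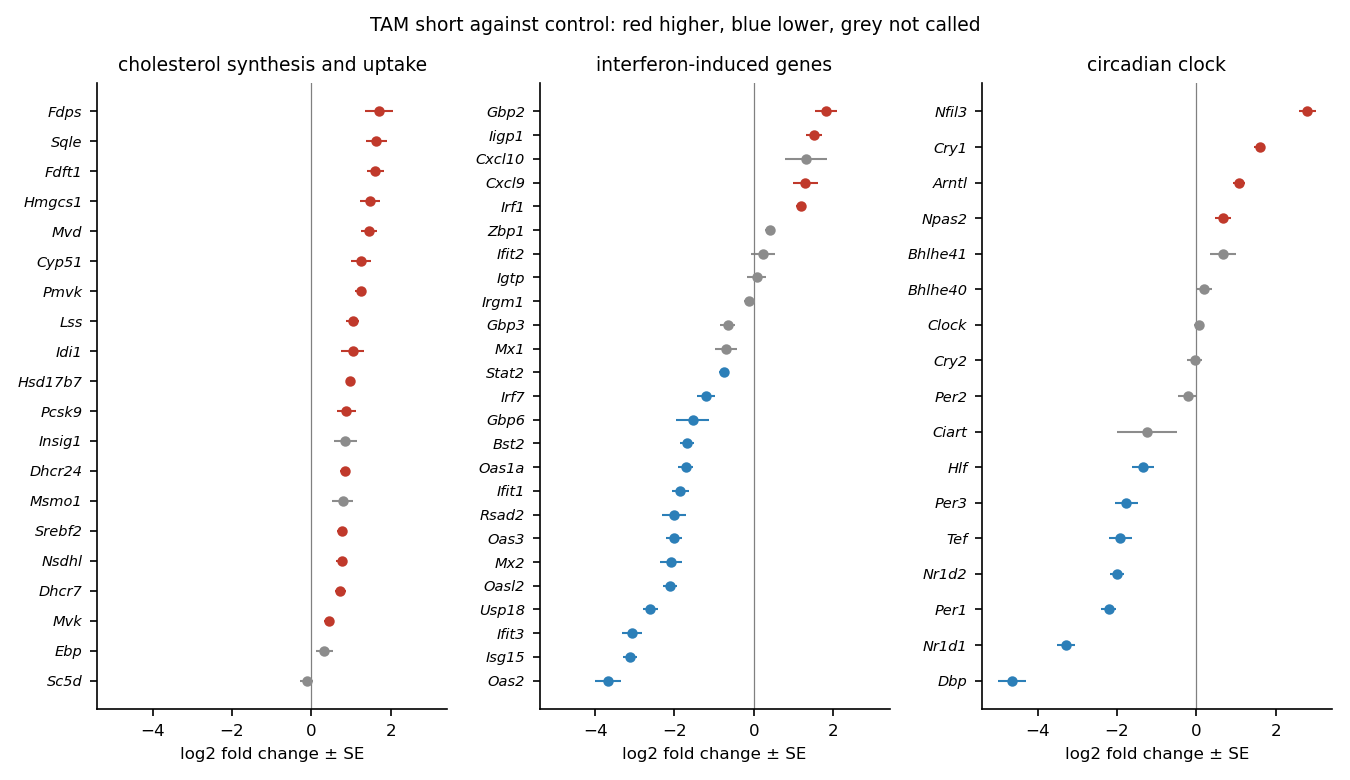
Log2 fold change, TAM short against control, of the genes drawn for cholesterol synthesis and uptake (left), interferon response (middle) and the circadian clock (right), with bars of 1 SE; red points are called higher, blue lower and grey not called. The cholesterol genes lie to the right of 0 except Sc5d, and the interferon and clock genes lie on both sides, with Oas2 and Dbp lowest.

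Among the secretory cells, Paneth cell genes were below control in 12 of 13 tested. Only 1 of the 13 was called lower, beside 7.8% of all genes, AY761184, a defensin (log2 fold change -1.98 ± 0.23, edgeR adjusted p = 0.0023). Lyz1, lysozyme, had 8840 and 7020 CPM in control and 6120 and 4500 in TAM short (-0.58 ± 0.31), and Defa24 6430 and 6040 against 3710 and 2720 (-0.96 ± 0.41), both without overlap and not called. Defensins are a family of near copies, so reads may have been split among them. Goblet cell genes were above control in all 12, with 3 called higher, beside 6.52% of all genes. Retnlb, a goblet cell protein induced by bacteria and worms, rose from 172 and 134 CPM to 1280 and 1220 (3.04 ± 0.33, edgeR adjusted p = 0.000388), Muc2, the gel-forming mucin, from 1370 and 1110 to 2180 and 2750 (0.99 ± 0.21) and Atoh1, the factor that sets the secretory fate, from 14.6 and 14.2 to 25.5 and 27.0 (0.87 ± 0.24). Of the goblet cell genes, 2 were called without TAM short replicate 1, and 1, Retnlb, without control replicate 1, control replicate 2 or TAM short replicate 2, where Muc2 had edgeR adjusted p from 0.0633 to 0.163.

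Of the hormone genes, Pyy and Gcg, made by cells that are most frequent in the distal gut, rose from 3.51 and 2.29 CPM to 24.6 and 21.1 (log2 fold change 2.97 ± 0.28) and from 22.6 and 14 to 48.4 and 47.6 (1.39 ± 0.23). Gip, made by cells of the proximal gut, fell from 53.8 and 49.5 CPM to 28.4 and 16.2 (-1.21 ± 0.27, edgeR adjusted p = 0.031). Tac1, substance P, rose (2.39 ± 0.25), and Chga, the granule protein, fell (-1.19 ± 0.22), so 3 of 14 hormone cell genes were higher and 2 lower, beside 6.52% and 7.8% of all genes. Among those not called, Nts had a log2 fold change of 1.78, Sct 0.77 and Cck -0.31. The lower count was 0 without control replicate 1 or TAM short replicate 2 and 1 without control replicate 2, with edgeR adjusted p for Gip from 0.132 to 0.18.

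Of 12 stem cell genes 2 were higher and 1 lower, beside 6.52% and 7.8% of all genes, with a median log2 fold change of -0.01 and a summed level of 1150 and 1030 CPM in control and 818 and 770 in TAM short. With whichever library left out, 1 was higher and 0 lower. Lgr5, the gene that drives the Cre of this strain, had 7.8 and 5.18 CPM in control and 5.54 and 6.44 in TAM short (log2 fold change -0.12 ± 0.36, edgeR adjusted p = 0.87). Olfm4 fell from 632 and 589 CPM to 291 and 237 (-1.21 ± 0.25, edgeR adjusted p = 0.0117), and Axin2, a direct target of Wnt signaling, rose from 31.4 and 25.4 to 59.4 and 64.7 (1.13 ± 0.17, edgeR adjusted p = 0.00227). Axin2 was called with whichever library left out, whereas Olfm4 was called only with all 4 libraries (edgeR adjusted p from 0.0723 to 0.173). Of 15 Wnt target genes, 2 were higher (Axin2 and Ccnd1) and 1 lower (Nkd1), beside 14.3% of all genes called, and Myc (-0.05), Sox9 (0.15) and Cd44 (0.02) were not called. With 1 library left out, Ccnd1 reached an edgeR adjusted p of 0.215 and Nkd1 of 0.116, and the list had 1 or 2 higher and 0 or 1 lower. All 16 genes of the G2 and M phases were below 0 with a median of -0.34, and 3 passed the test (Ccnb1, Cenpf and Kif11), and 0 were called with whichever library left out. The 3 lower genes of these 16 stand beside 7.8% of all genes called lower. Mki67, the best known marker of dividing cells, had 294 and 272 CPM against 200 and 192. Targets of p53 had 2 of 14 lower and 0 higher, beside 14.3% of all genes called, and 0 with whichever library left out.

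**Figure D5:**
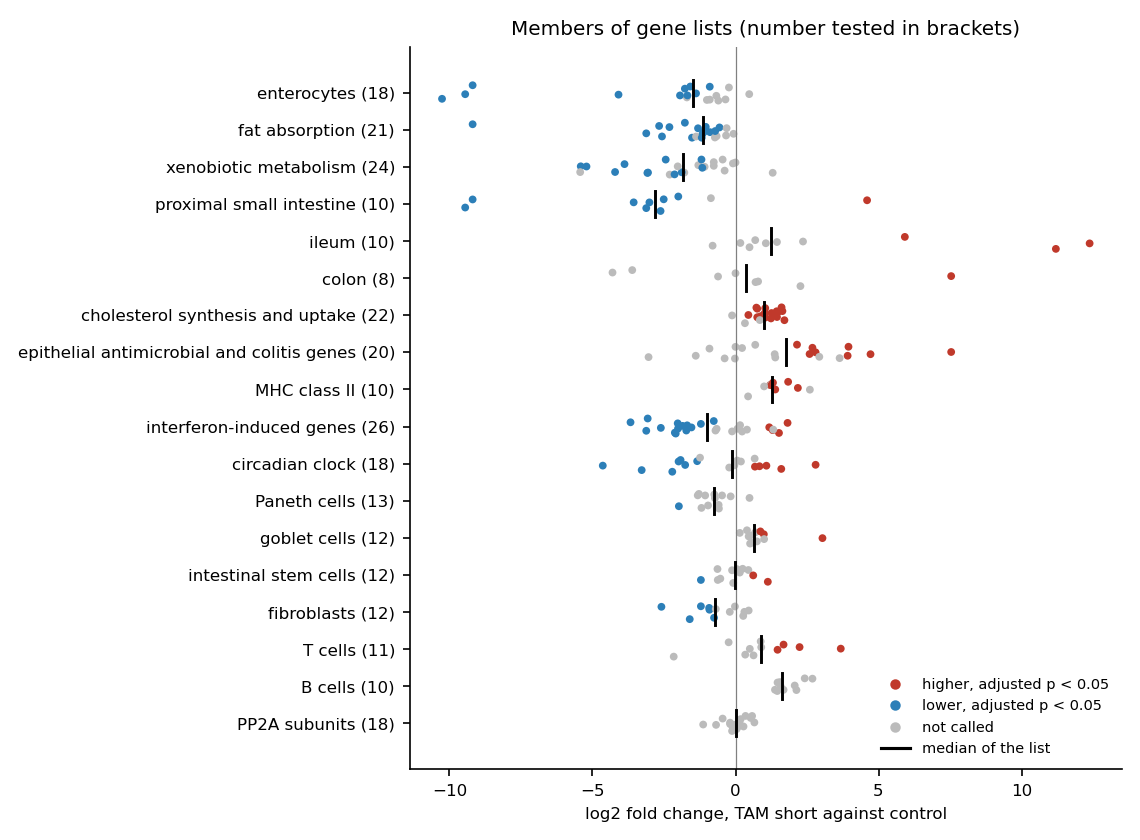
Log2 fold change, TAM short against control, of the tested members of 18 gene lists, 1 point a gene, red if called higher, blue if called lower and grey if not called, with a black bar at each list's median; the number tested is in brackets. Enterocyte, fat absorption, foreign compound and proximal genes lie mostly to the left, cholesterol and MHC class II genes to the right, and PP2A subunits around 0.

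Of 12 fibroblast genes, which stand for the supporting tissue, 6 were lower, beside 7.8% of all genes, and 0 higher. The 6 were for the extracellular matrix, as are most genes of the list. Among them, Col1a1 fell from 231 and 190 CPM to 76.6 and 62.5 (log2 fold change -1.6 ± 0.19, edgeR adjusted p = 0.000542) and Fbln1 from 147 and 195 to 31.0 and 25.6 (-2.59 ± 0.24). Pdgfra, a receptor that marks fibroblasts themselves, had 52.4 and 43.1 CPM against 53.8 and 40.6 (-0.02 ± 0.17). The matrix genes Dcn (0.46), Lum (0.27), Dpt (0.31) and Mfap5 (-0.69) were not called. The count of lower fibroblast genes was 2 without TAM short replicate 2 and 5 or 6 without another library. Endothelial genes had 3 of 12 lower, beside 7.8% of all genes, and smooth muscle genes had 0 of 10 called by edgeR, 2 at an unadjusted p under 0.05 and 1 lower by DESeq2. The endothelial count was 0 without control replicate 1, control replicate 2 or TAM short replicate 2, and with library size as the only scaling it was 1 lower and 1 higher.

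Of the remaining lists, immediate early genes had 5 of 16 higher and 2 lower, beside 6.52% and 7.8% of all genes. The higher genes were Jun, Junb, Jund, Egr1 and Nr4a1 (log2 fold changes 0.58 to 1.61). Fos fell from 173 and 247 CPM to 74.3 and 81.1 and Fosb from 15.4 and 29.6 to 2.49 and 3.66. Without control replicate 2 the immediate early genes had 1 higher, and without control replicate 1, TAM short replicate 1 or TAM short replicate 2 none, with Fos and Fosb lower in each case. In the hypoxia and glycolysis list 4 of 16 genes were higher (Hk2, Ankrd37, Pfkfb3 and P4ha1) and 3 lower, beside 6.52% and 7.8% of all genes. Hk2, a hexokinase, rose from 42.7 and 42.5 CPM to 295 and 346 (2.91 ± 0.26, edgeR adjusted p = 0.000141), while Pkm (-1.03), Eno1 (-0.75) and Pgk1 (-0.67) fell and Aldoa (0.21) and Ldha (-0.23) were not called. The list had 1 lower without control replicate 2, TAM short replicate 1 or TAM short replicate 2, and 1 higher without control replicate 1 or TAM short replicate 2 and 2 higher without each of the others. Respiratory chain genes of the nucleus had 4 of 19 lower (Sdhb, Ndufs1, Atp5c1 and Ndufv1, log2 fold changes -0.58 to -0.43), beside 7.8% of all genes. The mitochondrial transcripts mt-Cytb and mt-Nd4, among the most abundant called genes, fell by 0.59 and 0.5 on the log2 scale. Of the nuclear genes, 1 was called without control replicate 1 and 0 without each of the other libraries. Selenop, which carries selenium, rose from 1890 and 1750 CPM to 3440 and 3190 (0.87 ± 0.18). The calls of mt-Cytb, mt-Nd4 and Selenop were lost with whichever library left out (edgeR adjusted p from 0.0717 to 0.245). Estrogen response genes, followed because tamoxifen binds the estrogen receptor, had 2 of 8 higher, Ccnd1 and Xbp1, which also stand in other lists. That count was 1 without TAM short replicate 1 and 0 without control replicate 2 or TAM short replicate 2, beside 6.52% of all genes called higher. Esr1 itself had 8 counts in each control library and 11 and 8 in TAM short, Esr2 and Tff1 had 0 in all 4, and Greb1 had 30 and 29 against 20 and 29.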

How the data were processed

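RNA-seq of 10 libraries in 5 groups was deposited as 1 table of 47069 mouse genes. The authors aligned reads to the mouse genome with TopHat v2.0.12 (GRCm38.p6 per the processing notes), counted reads per gene with HTSeq v0.6.1, and deposited these raw counts, which were tested here. The authors also deposited FPKM values, their counts per gene length and library total, which were used only to choose the most abundant named genes. Fold changes and p-values of the authors' own comparisons in the table were not used, and 0 columns of per-sample values were left unmapped. Gene symbols came from GENCODE M21, which matched 98.95% of gene IDs, and 99.87% of these overlapped the listed position. The library kit does not mark strand, so overlapping genes can share reads.

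Genes were filtered with filterByExpr, scaled by TMM and fitted with edgeR 4.0.16 (glmQLFit and glmQLFTest) in R 4.3.3 on all 10 libraries with 5 group means, which gives 1 shared estimate of spread. P-values were adjusted by the Benjamini-Hochberg method over 16179 genes, with a threshold of 0.05. The SE of a log2 fold change is its size divided by the square root of the test's F. The fit was tested on simulated data. Folds against a group with 3 counts or fewer in each library were computed against 3 counts per library. Depth was between 8828247 and 10291026 counts in the 4 libraries. Tables were made with pandas 2.3.3 under Python 3.11.15 and figures with matplotlib 3.10.9.

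Named genes are Ppp2r1a, the 12 largest rises and the 12 largest falls among called genes with a mean of 50 counts, a symbol and no overlap between groups, the 12 called genes with the highest FPKM, and members of 50 gene lists. Other genes are said to have been chosen after their values were seen. The members and the lists were chosen with earlier results of these data known. The replicate numbers of control and TAM short were not taken to pair the libraries, since the labels give no shared litter, animal or day. Their deviations from the group means correlated at 0.0326 across genes, which cannot exclude a pairing. Alternatives were library size as the only scaling, no low-count filter, DESeq2 1.42.0, a fit of the 4 libraries, a fit without DMBA+TAM, a replicate block, a log2 fold change of at least 1 and leaving out each library. Some genes are not reported here, in the text or in figures that name genes, although the lists' counts include them.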

Additional observations from a re-analysis of the deposited data

How the results depend on the processing

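All 2317 called genes kept their direction under library size as the only scaling, no low-count filter, DESeq2 and the replicate block, as did the 2280 of them that a fit of the 4 libraries alone could test. The number called was 2184 with library size as the only scaling, 3294 without the low-count filter, 2419 with DESeq2 and 2446 without the DMBA+TAM group. In the fit of the 4 libraries alone it was 4317, with 2228 higher and 2089 lower, and 1172 genes (531 higher, 641 lower) had a log2 fold change of at least 1 as well. Leaving out 1 library gave from 669 to 1057 genes, with 307 to 489 higher and 362 to 582 lower, and the fits then assume that the lone library varies like the other groups. With the replicate block 2322 genes were called, 1055 higher and 1267 lower, of which 2167 were called before. The replicate deviations of control and TAM short correlated at 0.0326. Ppp2r1a had a log2 fold change between 0.05 and 0.23 and was not called in any of these fits. Of 674 single genes followed, 626 kept their side of the threshold with DESeq2, 645 with library size alone, 652 with the block and 563 to 592 with 1 library left out, and no called gene among them changed direction. Without the low-count filter and in the fit of the 4 libraries, lists that lean one way gained calls: ileal genes 8 and 8 higher, goblet cell genes 9 and 10 higher, B cell genes 10 and 9 higher, Paneth cell genes 10 and 8 lower, and foreign compound genes 19 and 20 lower. The cause was not tested. Whether the depth, not below 8828247 counts in the 4 libraries, or the 2 libraries a group limited the calls more was not tested.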

Other observations

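The genes of this paragraph and the next were chosen after their values were seen. Suox, sulfite oxidase, which makes sulfate in mitochondria, had 16.3 and 16.0 CPM in control and 625 and 776 in TAM short (log2 fold change 5.44 ± 0.21, edgeR adjusted p = 2.38e-06), and it stood between 11.5 and 33.6 CPM in the 6 libraries of the other groups. Slc13a1, a sulfate carrier, rose from 35.8 and 33.7 CPM to 560 and 711 (4.19 ± 0.59), and its call was lost without control replicate 2 (edgeR adjusted p = 0.0526). Of 6 enzymes that build sugar chains, picked for their large folds, 5 rose and 1 fell. B3gnt7 rose from 15.3 and 18.9 CPM to 341 and 349 (edgeR adjusted p up to 0.0902 with 1 library left out), and B3galt5, Fut2, St6galnac6 and Mgat4c had log2 fold changes of 3.97, 3.6, 3.52 and 3.47. St6galnac1, which adds sialic acid to mucin chains, fell from 9.72 and 8.91 CPM to 0.113 and 0.505 (-4.89 ± 0.49), beside the fall of St3gal4 given above. Slc34a2, a phosphate carrier, and Slc5a8, a carrier of short fatty acids, rose by 2.63 and 2.61 on the log2 scale. Enpp7, which digests sphingomyelin in the lumen of the proximal gut, fell from 733 and 565 CPM to 85.0 and 25.1, a call that was lost with DESeq2 (adjusted p by DESeq2 = 0.0625) and without control replicate 1 (edgeR adjusted p = 0.0539).

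Neighbouring genes of the Trim family on chromosome 7, between 104263386 and 104465193, moved in opposite directions. Trim5 had 0 counts in both control libraries and 65 and 51 in TAM short, at least 19.7-fold higher, and Trim12a rose from 0.565 and 1.08 CPM to 28.1 and 22.6 (log2 fold change 4.93 ± 0.32). Trim30a fell from 184 and 248 CPM to 23.5 and 23.3 (-3.2 ± 0.16, edgeR adjusted p = 8.25e-06). Trim5 was at 0 counts in both DMBA libraries and between 4.75 and 10.1 CPM in TAM long and DMBA+TAM, values that were not tested here. These genes are near copies of each other, so reads may have been split among them. Further interferon genes followed the lists, with Ifi44 at -2.85 and Oas1e at -5.54, while the surface proteins Cd274, which restrains T cells, and Cd38 rose by 2.44 and 2.73 on the log2 scale. Tlr1, Tlr6 and Tlr4, picked among the receptors for bacterial products, rose by 1.77, 1.95 and 1.15 on the log2 scale, and Tlr4 lost its call without control replicate 1, TAM short replicate 1 or TAM short replicate 2 (edgeR adjusted p from 0.102 to 0.208). Of 2 tight junction genes picked, Cldn2, which makes a leaky pore, rose from 121 and 111 CPM to 273 and 364, and Cldn4, a sealing one, fell from 159 and 228 to 111 and 125 (edgeR adjusted p = 0.0464). The call of Cldn4 was lost with whichever library left out (edgeR adjusted p from 0.0513 to 0.348), and that of Cldn2 without control replicate 1, control replicate 2 or TAM short replicate 2 (edgeR adjusted p up to 0.119). Casp6 fell from 165 and 276 CPM to 18.5 and 19.3, the chemokine Ccl24 from 17.8 and 31.0 to 1.24 and 1.01, and the cornified envelope gene Sprr1a rose from 0.339 and 0.843 to 10.6 and 10.5.

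The lists not described above are given here by their counts, beside 14.3% of all genes called. Cytotoxic lymphocyte genes had 2 of 9 higher, Gzmb from 39.6 and 43.5 CPM to 150 and 148 and Itgae at a log2 fold change of 1.06, and 1 lower, Klrd1 (-1.52), with 0 called with whichever library left out. Endoplasmic reticulum stress genes had 1 of 16 higher and 3 lower (Trib3 -1.78, Herpud1 -0.98 and Ddit3 -0.95), fatty acid oxidation genes 1 of 18 higher and 2 lower (Angptl4 from 64.0 and 56.6 CPM to 16.4 and 18.0), ERK target genes 1 of 14 higher and 2 lower (Areg -1.57 and Spry4 -1.01), and genes of a fetal-like epithelium 1 of 11 higher and 1 lower. Tuft cell genes had 2 of 10 lower (Sh2d6 -2.45 and Trpm5 -1.58), and Notch genes (Dll1), S phase genes (Tyms) and fat cell genes (Cidec) 1 lower each. With 1 library left out, Notch and S phase genes had 0 called each time, and tuft and fat cell genes had 1 lower without control replicate 1 and 0 without each of the other libraries. Mast cell genes had 1 higher, Mcpt1 from 9.72 and 9.03 CPM to 41.8 and 42.1, which was lost with whichever library left out, iron genes 1 higher, Slc40a1, colon genes 1 higher, Saa1, and general epithelial genes 2 higher, Elf3 and Cldn3. The general epithelial count was 1 with whichever library left out. Of the lists with calls in both directions, endoplasmic reticulum stress genes had 0 higher and 1 lower without control replicate 2 or TAM short replicate 2, ERK target genes 0 higher and 1 lower without each library but control replicate 1 (1 and 1), fatty acid oxidation genes 0 and 0 without TAM short replicate 2, and fetal-like genes 0 and 0 without each library but TAM short replicate 1 (1 and 1). For fatty acid oxidation genes the counts were 0 higher and 2 lower without control replicate 1, 1 and 1 without control replicate 2, and 1 and 0 without TAM short replicate 1. By edgeR, 0 genes were called among enteric neurons and glia (6 at an unadjusted p under 0.05, 1 lower by DESeq2), neutrophils (0 and 0), skeletal muscle (0 and 0), exocrine pancreas (0, and 1 higher by DESeq2), red blood cells (1, and 1 higher by DESeq2), 4 Y-linked genes (0 and 0) and Xist (0 and 0).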
